A study of Drosophila melanogaster with 2 samples.

Results

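The mitochondrial ribosomal protein genes of Drosophila melanogaster were taken as the protein-coding genes of the Ensembl BDGP6 annotation whose symbol starts with mRpL (large subunit) or mRpS (small subunit). The rule gave 73 genes, 47 mRpL and 26 mRpS, of 13945 protein-coding genes on 6 chromosome arms. For each gene, the chromatin sites of the transcription factor Fer2 whose summit lay inside it or at most 1 kb away were collected. The chromatin came from whole embryos aged 6 to 24 h of a transgenic line that stably carried Fer2 with green fluorescent protein fused to its C-terminal end. Chromatin was sonicated to 200 to 800 bp and immunoprecipitated with an antibody to GFP, per the sample description, although the antibody field of the labels names Fer2. The samples formed 1 group of 2 biological replicates, which carry the numbers 3 and 2 in the labels. No second genotype, age or factor was available to set beside them. Both replicates were set against the same control alignment, which was not analysed here. Whole embryos mix all tissues, so a site cannot be placed in a cell type, and tagged Fer2 was present beside whatever untagged Fer2 the line made.

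The peaks came in 4 lists: 1 for replicate 3, 1 for replicate 2, 1 for the pool of both, and a list filtered by the irreproducible discovery rate (IDR), a measure of how well replicates rank the same peaks. The last is called the thresholded list and held 2862 peaks. The signal value of a peak is the authors' own number, of unstated scale, and was used only to rank peaks within a list, with rank 1 the highest. Signal values in the thresholded list ran between 75.7 and 2295, with a median of 122.7. The depth of the libraries is unknown, and with 1 group no test over samples could be made, so all counts below are descriptions.

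Mitochondrial ribosomal proteins are encoded in the nucleus, made in the cytosol and imported into mitochondria, where they assemble with mitochondrial ribosomal RNA. The resulting ribosome makes the few respiratory chain proteins that mitochondrial DNA encodes. Fer2 is a basic helix-loop-helix factor known for its role in dopaminergic and clock neurons of the fly brain, and factors of this class bind E-boxes, DNA words of the form CANNTG. Many mitochondrial ribosomal protein genes in flies are small housekeeping genes that sit head to head with a neighbour.

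The sequence under the second highest peak of the group shows what these sites look like. It is the whole stretch between the start sites of mRpS10, a small subunit protein with a bacterial counterpart, and of the divergent Art3, an arginine methyltransferase gene. The stretch is chr3R:15229409-15229664, plus strand, in dm6 coordinates, with bases from the RefSeq Release 6 assembly. Capitals mark the bases within 50 bp of the summit of the thresholded peak, which ranked 6. It had a GC content of 25.7% and no CANNTG.
mRpS10-Art3: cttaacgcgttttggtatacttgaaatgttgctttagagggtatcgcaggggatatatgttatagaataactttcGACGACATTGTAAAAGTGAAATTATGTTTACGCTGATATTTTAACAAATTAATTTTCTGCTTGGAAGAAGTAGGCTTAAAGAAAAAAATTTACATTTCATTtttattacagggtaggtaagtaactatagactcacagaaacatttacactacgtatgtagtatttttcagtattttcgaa

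Other windows of the bases within 50 bp of a summit follow as examples, each on the strand of its gene (dm6, RefSeq bases). Capitals mark CANNTG and TATCGATA, the DNA replication-related element (DRE) bound by the factor DREF. They are mRpS23 (chr2L:13835415-13835515, minus strand, rank 24), mRpL24 (chr2L:4945447-4945547, minus, rank 112), mRpS2 (chr2L:4850505-4850605, minus, rank 197), mRpL20 (chr3L:13018131-13018231, minus, rank 1133), mRpL32 (chr3R:31252770-31252870, plus, rank 1550) and mRpL4 (chr2L:16329205-16329305, minus, rank 2478).
mRpS23: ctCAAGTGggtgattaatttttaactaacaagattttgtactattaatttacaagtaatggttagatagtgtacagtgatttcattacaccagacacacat
mRpL24: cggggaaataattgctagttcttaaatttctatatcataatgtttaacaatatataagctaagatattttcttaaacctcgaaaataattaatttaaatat
mRpS2: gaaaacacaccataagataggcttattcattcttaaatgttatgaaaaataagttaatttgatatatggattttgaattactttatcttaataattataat
mRpL20: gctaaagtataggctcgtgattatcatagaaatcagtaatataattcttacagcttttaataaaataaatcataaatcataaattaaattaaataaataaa
mRpL32: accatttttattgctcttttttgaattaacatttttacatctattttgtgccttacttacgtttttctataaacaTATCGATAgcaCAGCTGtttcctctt
mRpL4: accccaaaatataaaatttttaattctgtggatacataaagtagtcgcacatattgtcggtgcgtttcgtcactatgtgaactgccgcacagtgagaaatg
Long runs of A and T fill the windows of mRpL24, mRpS2 and mRpL20, whose GC contents were 20.8%, 19.8% and 18.8%. The mRpL4 window was richer in GC, at 38.6%. Of these 6 windows, those of mRpS23 and mRpL32 held an E-box, and in mRpL32 it lay next to the DRE. Over the 35 thresholded peaks in range of the group, GC content at the summit reached 55.4%. The windows richest in GC are thus not among those shown.

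Of the 73 genes, 33 had a thresholded peak in range (45.2%), against 23.1% of all protein-coding genes. The share was 15 of 26 small subunit genes (57.7%) and 18 of 47 large subunit genes (38.3%). Counts in the longer lists were closer to the background, with 59 genes in the pooled list (80.8% against 67.9%), 59 in the replicate 3 list (80.8% against 71.3%) and 65 in the replicate 2 list (89.0% against 69.8%). When each replicate list was limited to its highest 2862 peaks, 29 genes had a peak in replicate 3 (39.7% against 23.5%) and 27 in replicate 2 (37.0% against 22.3%). In both of these limited lists together, 20 genes had one (27.4%, against 18.7% of all protein-coding genes). A further 9 genes had one in replicate 3 alone (12.3% against 4.78%) and 7 in replicate 2 alone (9.59% against 3.61%).

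The nuclear genes for the cytosolic ribosome and for the rest of mitochondrial translation were counted in the same way. Among 86 cytosolic ribosomal protein genes, 64 had a thresholded peak (74.4%). Among 38 other genes of mitochondrial translation and mitochondrial DNA upkeep, such as translation factors, aminoacyl-tRNA synthetases and transcription factors, 3 had one (7.89%). These were LeuRS-m, the mitochondrial leucyl-tRNA synthetase gene (rank 811, summit 838 bp upstream of its start), mtSSB, which encodes the mitochondrial single-strand DNA binding protein (rank 1513), and mTerf5, of the mitochondrial termination factor family (rank 2400). Thus 45.2% of the 73 genes chosen by symbol had a thresholded peak, against 74.4% of the cytosolic ribosomal protein genes and 7.89% of the other list. The last list was small. It held bonsai and tko, mitochondrial ribosomal protein genes that the symbol rule leaves out, and neither had a thresholded peak. The differences between groups were not tested.

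**Figure D1:**
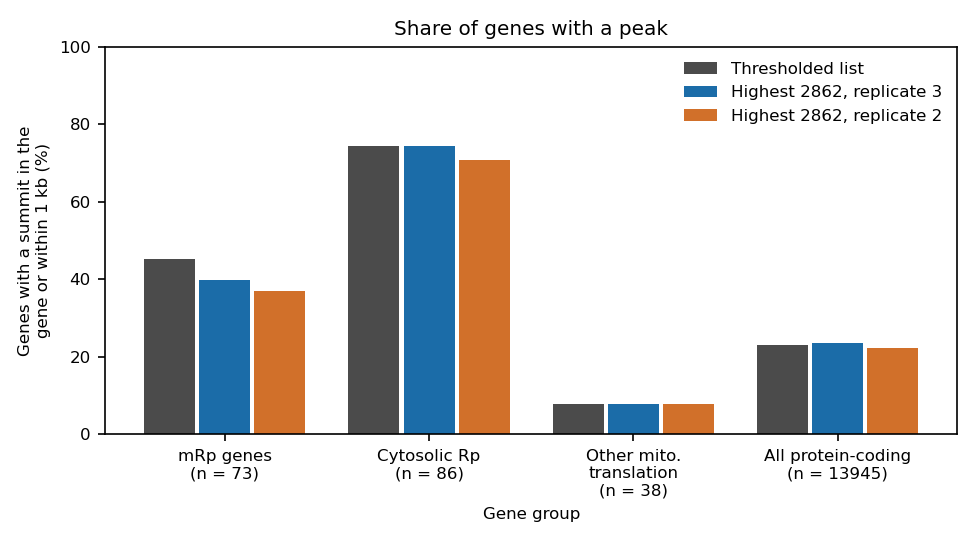
Share of genes with a peak summit in the gene or within 1 kb, in percent, for 4 gene groups (mRp, mitochondrial ribosomal protein genes; Rp, ribosomal protein genes). Bars give the thresholded list and the highest 2862 peaks of each replicate list: 45.2%, 39.7% and 37.0% of the mRp genes, against 23.1%, 23.5% and 22.3% of all protein-coding genes.

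A few of the peaks were among the highest of the whole list, and most were low. A peak of rank 100 or better was in range of 4 of the 73 genes (5.48%), against 1.18% of all protein-coding genes. At rank 1000 or better the shares were 8 of 73 (11.0%) and 10.1%. The best rank of the 33 genes had a median of 1832, against 1182.5 for the 3224 protein-coding genes with a thresholded peak. In all, 12 genes lay in the higher 1431 peaks and 21 in the lower, with 11 in the lowest 500. The matching counts over all protein-coding genes are not given here. The median best rank was 1832 for the 15 small subunit genes and 1750 for the 18 large subunit genes.

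The highest peak belonged to mRpL41, which encodes a large subunit protein with no bacterial counterpart. It had a signal value of 2102 in the thresholded list, 1352 in replicate 3 and 744.6 in replicate 2, and ranked 2 in each. Its summit lay 136 bp upstream of the start site, in chr2R:15217550-15217976, and no other protein-coding start site lay within 500 bp of it. CG8079, the divergent neighbour, started 762 bp from mRpL41, so the summit was nearer to mRpL41. For mRpS10 the signal values were 1306 in the thresholded list, 811.4 in replicate 3 and 507.5 in replicate 2, with ranks 6, 6 and 11. The summit lay 131 bp upstream of mRpS10 and 126 bp upstream of Art3, at 51.0% of the 257 bp between their starts. The replicates placed both peaks near the head of their lists.

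mRpS23, a mitochondrion-specific small subunit protein gene, had a signal value of 898.5 in the thresholded list, 607.1 in replicate 3 and 298.5 in replicate 2 (ranks 24, 16 and 41). Its summit lay 393 bp upstream, but 99 bp upstream of the divergent CenG1A, an Arf GTPase-activating protein gene. mRpL23, whose bacterial counterpart lies at the exit of the peptide tunnel, had a signal value of 692.0 in the thresholded list, 466.0 in replicate 3 and 224.3 in replicate 2 (ranks 38, 33 and 92). This summit lay 60 bp downstream of its own start, in its 5′ UTR, and 110 bp upstream of CG9004. It was the only one of the 27 summits within 500 bp of the own start that lay downstream of it.

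mRpL24, another protein of the tunnel exit in bacteria, had a signal value of 461.7 in the thresholded list, 272.9 in replicate 3 and 182.3 in replicate 2 (ranks 112, 104 and 150). mRpS2, a protein between head and body of the bacterial small subunit, had 347.6, 222.1 and 127.8 in the same lists (ranks 197, 153 and 315). Both summits lay 136 bp upstream of the gene. They were nearer to the neighbour, 82 bp upstream of betaggt-I, a prenyltransferase subunit gene, and 86 bp upstream of Mon1, part of a Rab GTPase exchange factor. The gaps between the starts were 218 and 222 bp, so the 2 loci had nearly the same layout.

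Rank then dropped. mRpL13, with a bacterial counterpart, came next at rank 330 in the thresholded list, 301 in replicate 3 and 345 in replicate 2 (signal value 279.2, 162.2 and 123.3). Its peak lay 1448 bp downstream of the mRpL13 start, in an intron of CG10602 and 121 bp upstream of a start site of that gene. mRpS26 ranked 981, mRpS22 1047, mRpL20 1133, mRpL34 1364 and mRpS18B 1380 in the thresholded list, and their replicate ranks ran between 752 and 2188. All 5 had a summit 89 to 314 bp upstream of their own start and another start within 500 bp, that of CG13698, CG5003, Icmt, Dg and Kua in that order. Dg encodes dystroglycan, an extracellular matrix receptor, and Icmt a carboxyl methyltransferase of prenylated proteins.

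At the other end, by the best peak of each gene, mRpL53, mRpS16, mRpL21 and mRpL39 were the lowest in the thresholded list, at ranks 2692, 2698, 2792 and 2830. Their signal values were 79.3, 79.2, 77.3 and 76.4, just above the lowest of the list, 75.7. In replicate 3 these genes ranked 2406, 3271, 2113 and 2377, and in replicate 2 they ranked 4230, 2390, 6127 and 4379. In replicate 3, 1 of the 4 ranked below 2862, and in replicate 2, 3 did. mRpL21 had its summit 276 bp upstream of its own start and 3 bp from that of rept, a chromatin remodelling ATPase gene. mRpL39 had its summit 99 bp upstream, in the gap to Prosbeta2, a proteasome subunit gene.

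**Figure D2:**
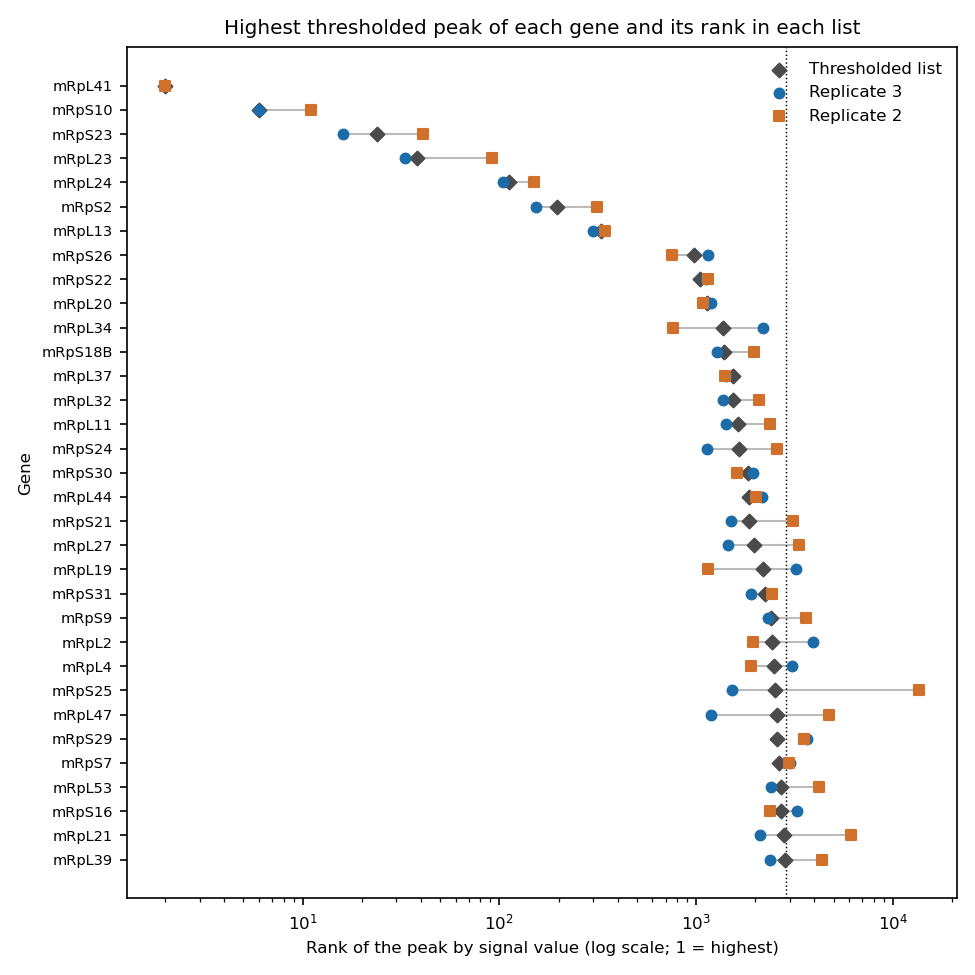
Rank of the highest thresholded peak of each of the 33 genes in the thresholded list (diamonds), replicate 3 (circles) and replicate 2 (squares), on a log scale with 1 the highest. The dotted line marks rank 2862. In replicate 3, 27 of the peaks lay at or above it, and in replicate 2, 23 did. The matching counts over all thresholded peaks are not given. Among the 33, mRpS25 and mRpL47 had the largest ratios between replicate ranks.

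The highest peaks of the 33 genes were all overlapped by a peak in both replicate lists, with summits a median of 56 bp apart and at most 140 bp. The thresholded list was itself filtered by how well the replicates ranked the same peaks, so this overlap is no separate evidence of agreement. In replicate 3, 27 of the 33 were at rank 2862 or better, in replicate 2 it was 23, and 19 were so in both. The matching counts over all thresholded peaks are not given here, so these describe the 33 peaks only. Across the 33 peaks, Spearman's rho between the signal values of the replicates was 0.60. This is a description across sites that share the library of each replicate and the same control. Over all 73 genes, the largest ratios between the ranks in the 2 replicates were in mRpS18A, mRpS25, mRpS5 and mRpL47. mRpS18A ranked 2143 in replicate 3 and 27101 in replicate 2, mRpS25 ranked 1527 and 13647, and mRpL47 ranked 1187 and 4765. For mRpS5 the ranks were 3000 and 24094, but the summits lay 39 and 2186 bp downstream of the start, so they were different peaks. In all 4 the replicate 3 peak was the higher one. By their human counterparts, the products of mRpS18A and mRpS30 are now placed in the large subunit, while this grouping follows the symbols.

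The summits lay just upstream of the genes. Of the 33 genes, 27 had the highest summit within 500 bp of their own start (81.8%, against 63.6% of the 3224 protein-coding genes with a thresholded peak). Counting all thresholded peaks, 28 of 73 genes had a summit this near (38.4%, against 15.9%). Of the 27 summits, 26 were upstream (96.3%, against 90.0%). The median was 136 bp upstream, with quartiles of 230 and 100.5 bp, and the median of all protein-coding genes with such a summit was 143 bp. The range ran between 393 bp upstream and 60 bp downstream. Within the gene body itself, 2 of the 73 genes had a thresholded summit (2.74%, against 8.42%). The 73 genes are shorter, with a median length of 909 bp against 2166 bp over all protein-coding genes.

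Most of these promoters are shared with a neighbour. A divergent protein-coding neighbour, starting within 1 kb upstream on the other strand, was annotated for 56 of 73 genes (76.7%, against 33.3% of all protein-coding genes and 60.5% of cytosolic ribosomal protein genes). A thresholded peak was in range of 29 of the 56 divergent genes (51.8%, against 38.2% of all divergent genes), and of 4 of the 17 other genes (23.5%, against 15.6%). Shared arrangement and peak frequency therefore moved together over all genes too, and their part in the count of 33 was not tested. The 2 starts were a median of 297 bp apart (24 to 793 bp) in the 29 divergent genes with a peak and 192 bp apart (20 to 515 bp) in the 27 without. All 56 had a median of 287.5 bp, against 302 bp over all divergent genes.

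In 23 of the 29 the highest summit lay between the 2 starts (79.3%, against 58.2% of all divergent genes with a peak). It was a median of 51.0% of the way to the neighbour, with quartiles of 33.5% and 67.5%. The nearer start was that of the mitochondrial ribosomal protein gene in 11 and of the neighbour in 12. Of the 27 summits near the own start, 24 were also within 500 bp of another protein-coding start (88.9%, against 65.1%), and 13 were nearer to it (48.1%, against 31.7%). The exceptions were mRpL41, mRpL4 and mRpL19. All 35 thresholded peaks in range of the 73 genes were also in range of at least 1 other protein-coding gene. The share of all thresholded peaks in range of several genes is not given here, so this count describes the 35 only. When each summit was given only to the protein-coding gene with the nearest start, ties included and at any distance, 15 of the 73 genes had a peak (20.5%, against 16.4%). Of these 15, 14 were among the 33 genes with a summit within 1 kb.

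**Figure D3:**
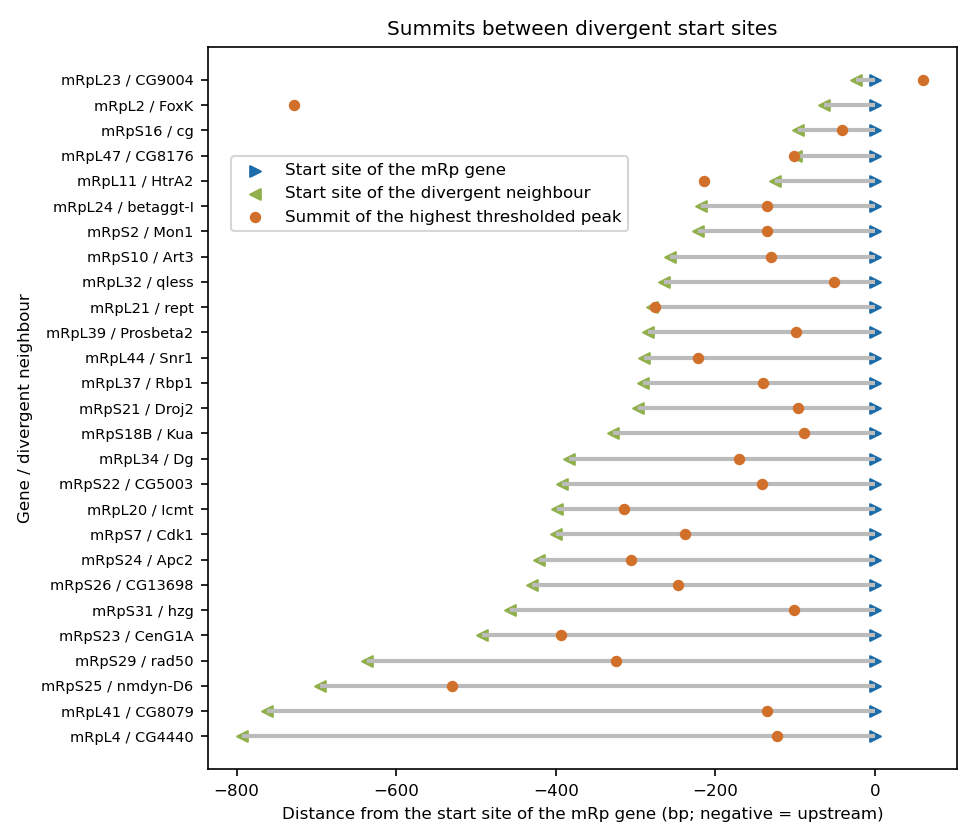
Start sites and summits for the divergent genes whose highest thresholded summit lay within 1000 bp of their own start, ordered by the distance between the starts. Each line spans the most upstream start of the mRp gene (right, at 0) and of its neighbour (left). The circle is the summit, placed by its distance to the nearest start of the mRp gene. In 23 genes the circle lies between the starts. In mRpL23, which has 3 starts, it lies 60 bp downstream of the nearest, which is not the start the line is drawn from.

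In 6 genes the highest thresholded summit was over 500 bp from their own start, and each of these lay within 500 bp of another gene's. Besides mRpL13 they were mRpS30, mRpL27, mRpS9, mRpL2 and mRpS25. For mRpL27 the summit lay 12 bp upstream of RpL27A, a cytosolic ribosomal protein gene. A second peak in its range, at rank 2380, lay 133 bp upstream of mRpL27. That summit was nearer to the divergent CG15435, 42 bp downstream of its start and in its 5′ UTR. The mRpS9 peak was in an intron of mRpS9, 7004 bp downstream of its start, and 159 bp upstream of wtrw, a TRP channel gene. The mRpL2 summit lay 292 bp downstream of the start of FoxK, a forkhead factor, and that of mRpS25 lay 165 bp upstream of nmdyn-D6. The second peak in range of mRpS7, at rank 2838, was 128 bp upstream of da, which encodes Daughterless, a helix-loop-helix partner of many factors of the class Fer2 belongs to.

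The other 40 genes had no thresholded peak, and 26 of them had a pooled one (65%, against 58.3% of all protein-coding genes without a thresholded peak). Their best pooled ranks ran between 3088 and 28614 with a median of 6043, and 12 were at rank 5724 or better. In 19 of the 26 the pooled summit was within 500 bp of the own start, and in 16 of these it was upstream. The matching rank and position counts over all protein-coding genes are not given here, so these values describe the 26 genes only. The nearest to the threshold were mRpL9, mRpS18A, mRpL48 and mRpL51, at pooled ranks 3088, 3673, 3816 and 4046. mRpL9 ranked 3603 in replicate 3 and 2362 in replicate 2, with a pooled summit 79 bp upstream. mRpL51 ranked 5904 in replicate 3 and 4984 in replicate 2, with its pooled summit 160 bp upstream. Over all 4 genes the pooled summits lay 32 to 160 bp upstream of the own start.

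No thresholded or pooled peak was in range of 14 genes, of which 8 had one in a replicate list. The remaining 6 had no peak in any list: mRpL14, mRpL38, mRpL45, mRpS28, mRpS33 and mRpS34. A list holds only peaks above its own lower limit, so this does not show that tagged Fer2 is absent. In both replicate lists 58 of the 73 genes had a peak (79.5%, against 59.9% of all protein-coding genes). In replicate 3 only, 1 had one (1.37% against 11.4%), and in replicate 2 only, 7 did (9.59% against 9.90%). By arm, 8 of 12 genes on 2L, 5 of 12 on 2R, 7 of 17 on 3L, 11 of 21 on 3R and 2 of 11 on X had a thresholded peak. Over all protein-coding genes of these 5 arms the shares ran between 21.6% on X and 25.2% on 3R.

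The summits were poor in GC. Over the 35 peaks, the bases within 50 bp of the summit had a median GC content of 29.7% and a mean of 31.1% ± 9.72 (SD over 35 peaks). Windows of the same length centred 250 bp to the right and to the left had medians of 41.6% and 42.6%. All thresholded peaks had a median of 30.7% at the summit, those near a protein-coding start 29.7%, and the 26695 pooled peaks outside the thresholded list 40.6%. A dip of this size was thus present in the thresholded list as a whole. Of the 35 windows, 27 were under 35% and 6 at 40% or more, and 19 were below both of their flanks. These counts are not given here for all thresholded peaks. The quartiles of the 35 windows were 22.8% and 33.2%, against 25.7% and 37.6% over all thresholded peaks. The 12 peaks in the higher 1431 of the list had a median of 24.3%, and the 23 lower ones 31.7%. Over all thresholded peaks the higher 1431 had 29.7% and the lower 32.7%.

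**Figure D4:**
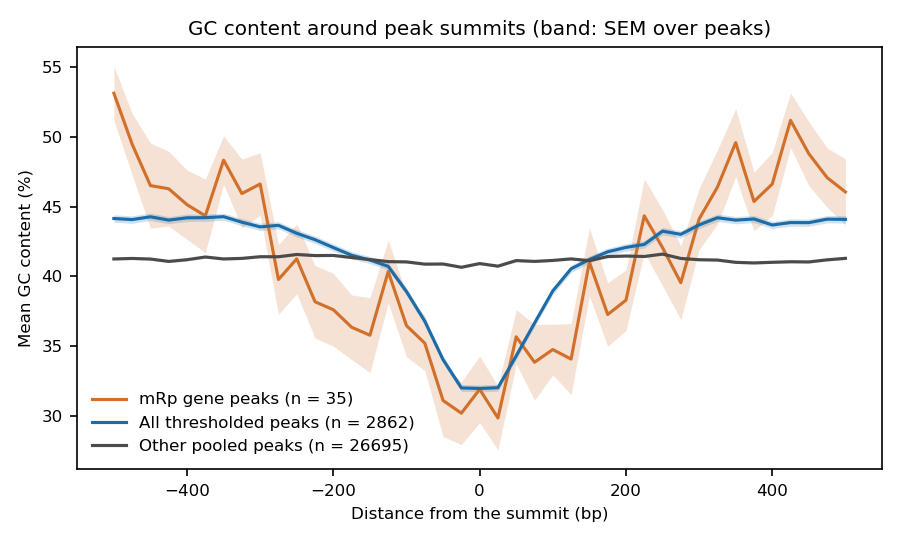
Mean GC content, in percent, of 25-base windows at each distance from the summit in bp, for the 35 mRp gene peaks, all 2862 thresholded peaks and the 26695 other pooled peaks. Bands give the SEM over peaks; the first 2 groups dip at the summit, and the other pooled peaks stay close to 41%.

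A set of 12 words was searched on both strands in the same windows. CANNTG was in 12 of 35 summit windows (34.3%), against 32.4% of all thresholded and 40.8% of other pooled summits. It was in 13 of the right flanks (37.1%, against 39.7% for all thresholded peaks) and 14 of the left (40%, against 40.6%). Among its forms, CACGTG was in 1 summit window (2.86%, against 0.804% of all thresholded summits). The form CAGCTG was in 2 (5.71% against 3.07%) and the form CATATG in 1 (2.86% against 4.30%). GATAA was in 14 windows (40% against 25.7%) and TAATTA in 7 (20% against 11.5%). In the flanks, GATAA was in 11 on the right (31.4% against 18.6%) and 4 on the left (11.4% against 19.6%). At the summit, TATAAA was in 7 windows (20% against 25.5%), GAGAG in 2 (5.71% against 8.67%) and CGATA in 6 (17.1% against 15.5%). TATCGATA, which holds CGATA, was in 1 (2.86% against 1.64%). GGTCACAC, the core of a promoter word common in housekeeping genes, was in 2 (5.71% against 0.454%). These were the mRpS16 peak and the mRpL27 peak near the RpL27A start. Of the 28 summits near the own start, 1 held it (3.57%). The share was 0.751% of thresholded summits within 500 bp of a protein-coding start. GCGCATGC was in none of the 35 (0.140% of all thresholded summits). With 35 windows, each window counts for 2.86%, and a missing word says only that these letters were not in the window.

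The same words were searched in promoter windows, and 1 of them was followed further after these values were seen. CAGCTG, an E-box, was in the 300 bases between 250 before and 50 after the start in 40 of the 73 genes (54.8%). It was in 17.7% of all protein-coding promoters, 21.7% of divergent ones and 8.14% of cytosolic ribosomal protein promoters, but also in 20 of the 38 other mitochondrial translation genes (52.6%). The 45 sites were centred near the start of transcription, with a median of 4 bp downstream of it and quartiles of 32 bp upstream and 18 bp downstream. Some lay far upstream, and 4 of the 73 genes had a site in the 25 bases that begin 250 bp before the start. Over all genes the median was 49 bp upstream. In the 25 bases from the start on, 19 of 73 genes had a site (26.0%), against 3.05% of all protein-coding genes. A thresholded peak was in range of 17 of the 40 genes with the word (42.5%) and of 16 of the 33 genes without it (48.5%). Over all protein-coding genes these shares were 26.9% and 22.3%. In the 13 genes with both the word and a highest summit near their own start, the nearest site lay a median of 112 bp from the summit (32 to 329 bp), and it was within 50 bp in 2, mRpL32 and mRpL53.

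Sites around the word are shown as 30 bases each, with CAGCTG in capitals, on the strand of the gene (dm6, RefSeq bases). They are examples near the start, from genes with and without a peak. With a thresholded peak are mRpS21 (chr3R:13381790-13381819, minus strand, 4 bp downstream of the start), mRpS24 (chr3R:24163508-24163537, minus, 22 bp downstream), mRpL11 (chr3R:14511821-14511850, plus, 3 bp upstream) and mRpL21 (chr3L:19255067-19255096, minus, 21 bp upstream). Without a peak in any list are mRpS34 (chr3L:16348064-16348093, plus, 4 bp downstream), mRpS33 (chr3R:16436566-16436595, minus, 16 bp downstream), mRpL45 (chr3R:22618471-22618500, plus, 7 bp upstream) and mRpL14 (chrX:2344704-2344733, minus, 70 bp upstream).
mRpS21: agtgatattcatCAGCTGtttagcagtaca
mRpS24: cgtcacgtcaatCAGCTGttgctggacgca
mRpL11: cagcaataccatCAGCTGttgctgcttctt
mRpL21: cgcatgctaacaCAGCTGttcgaaaacgcg
mRpS34: agccagccggcaCAGCTGttcgaccttccc
mRpS33: gcacttggaaatCAGCTGtcgcttgttttt
mRpL45: aatcacgtttgcCAGCTGgtcgcgttagtg
mRpL14: gtccgctcttaaCAGCTGcttgctctgtta
Among the 6 genes with no peak in any list, mRpL38 was the only one without the word. The full promoter windows had a median GC content of 33.3% in genes with a thresholded peak and 36.2% in those without, against 38.0% over all protein-coding genes. TATCGATA was in 9 of the 33 promoters with a peak (27.3%), against 13.2% of all protein-coding genes with a thresholded peak. It was in 6 of the 40 without (15%), and in 9.36% of all protein-coding promoters.

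**Figure D5:**
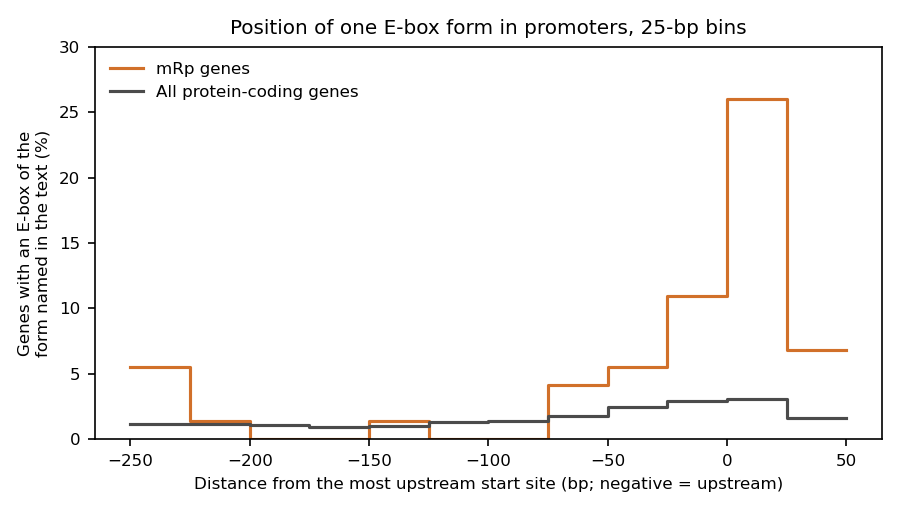
Share of genes, in percent, with the E-box form that has G and C as its middle bases in each 25-bp bin of the promoter, by distance from the most upstream start site. In the bin that begins at the start, 26.0% of the 73 mRp genes had a site, against 3.05% of all protein-coding genes.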

How the data were processed

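The authors deposited 4 narrowPeak lists on dm6: one per replicate, one for the pool and one filtered by IDR, which per the files' accompanying text was made from the other 3. Per the file format, each peak carries a signal value, a score of unstated scale given by the authors' caller, a −log10 q-value deposited by the authors and not used here, and the deposited summit offset in bp. Which caller, settings, IDR threshold and depth lie behind the lists is not given in the sources used here. The summit was taken as the second column plus the offset, counted from 1. Genes came from Ensembl release 115 and sequence from RefSeq Release 6, the same assembly as dm6. Python 3.11.15, pandas 2.3.3, numpy 2.4.6, scipy 1.17.1 and matplotlib 3.10.9 were used, and the assignment of peaks to genes was checked on simulated peaks.

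A gene had a peak if a summit lay in it or within 1 kb. A start was the nearest annotated start of any transcript, and promoter windows used the most upstream one. Named genes were the 12 with the highest and the 4 with the lowest thresholded peaks, by the best peak of each gene, those whose summit lay over 500 bp from their own start and within 500 bp of another's, those with no peak, up to 4 just below the threshold and up to 4 with the largest ratio of ranks between replicates. Other genes, named for sequences or second peaks, were chosen after their values were seen. The genes, lists and words were chosen with earlier results of these data known, and the promoter word search and the mRpS7 and mRpL32 details were added after seeing values. No label says whether the replicates came from separate embryo collections beyond calling them biological. Of the 26 symbols listed for other mitochondrial translation genes, 3 were not found. The neighbour of the mRpS30 peak is not reported here.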

Additional observations from a re-analysis of the deposited data

How the results depend on the processing

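The count of 33 genes with a thresholded peak was 28 when the summit had to lie within 500 bp of an own start, 40 within 2 kb and 33 by overlap of the interval. It moved further, to 12 in the higher-ranked 1431 peaks, 2 in gene bodies only and 15 when each summit went to the gene with the nearest start at any distance. With 1 replicate left out, it ran between 27 and 29. For 2 kb, interval overlap and the higher-ranked 1431 peaks, the shares over all protein-coding genes are not given here. The median summit distance was also -136 bp over all 33 genes, including those with a summit over 500 bp from their own start. This median was the same from the most upstream start and ran between -141 and -134 bp with 1 replicate left out. Divergent neighbours numbered 56, 51 within 500 bp and 56 with any annotated gene. Median GC at the summit, 29.7%, was 27.5% within 25 bp, 30.8% within 100 bp and 28.7% with either replicate left out. The 12 summits with an E-box became 5 within 25 bp and 19 within 100 bp, since a window of another length holds fewer or more bases. With 1 replicate left out their number ran between 6 and 12; it was 6 without replicate 3, and the cause was not tested. No paired analysis was possible because there was 1 group and no test. Depth and the scale of the signal value are unknown, so no statement about small differences in rank can be made.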
